A study of Mus musculus with 9 samples.

Results

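The D-type cyclins, the 2 kinases that they switch on and the inhibitors of those kinases were followed at the transcript level through 3 sorted fractions of mouse bone marrow progenitors. The genes were the cyclins Ccnd1, Ccnd2 and Ccnd3, the kinases Cdk4 and Cdk6, the CIP/KIP inhibitors Cdkn1a, Cdkn1b and Cdkn1c, and the INK4 inhibitors Cdkn2c and Cdkn2d. Every probe set (a group of short probes read as 1 measurement) whose single gene symbol in the platform annotation was one of these was taken, which gave 26 of the 45101 probe sets on the array. They measure 10 of the 18193 genes with a probe set of their own, and no filter on low values removed any of them. Where 1 value per gene was needed, the gene was represented by its brightest probe set on average across the 9 arrays.

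RNA was hybridised to 9 Affymetrix arrays, 3 per group, from 6-week-old mice. The LSK WT group is Lin-, cKit+, Sca1+ marrow, the fraction that holds stem and multipotent cells, from Ncstn flox/flox mice. The GMP WT group is Lin-, cKit+, Sca1-, CD34+, FcgammaRII/III+ marrow, the granulocyte-monocyte progenitors, of the same genotype. The GMP NcstnKO group is the same sorted fraction from littermates of genotype Ncstn flox/flox Mx1-cre+. Ncstn encodes nicastrin, a subunit of the γ-secretase protease that releases the active form of Notch receptors. Mice of both genotypes carried the floxed alleles, and mice of both received polyIC, which induces interferon and so the Mx1 promoter that drives Cre, 3 times at 20 μg per g body weight from 14 days of age. Marrow was taken 4 weeks after the injections. Cre was present only in the knockouts, so its effect and the loss of nicastrin cannot be told apart. Mx1-cre acts in many interferon-responsive cells, not in GMP alone. The labels do not say that each array is a separate mouse, and p-values then measure only the spread between these arrays.

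In the G1 phase of the cell cycle, D-type cyclins bind CDK4 or CDK6, and the active kinase phosphorylates the retinoblastoma family of pocket proteins, which releases E2F factors to switch on genes of DNA replication. INK4 proteins (Cdkn2c encodes p18 and Cdkn2d p19) bind CDK4 and CDK6 directly. CIP/KIP proteins (Cdkn1a encodes p21, Cdkn1b p27 and Cdkn1c p57) bind cyclin-kinase complexes and inhibit CDK2 above all. In marrow, CDK inhibitors are known for holding stem cells out of cycle, and CDK6 for its role in the exit of stem cells from quiescence and in progenitor growth.

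The nicastrin transcript was lower in the knockouts. Ncstn read 9.25, 9.31 and 9.26 (log2 intensity of probe set 1418570_at) on the 3 GMP WT arrays and 7.79, 7.78 and 7.76 on the 3 GMP NcstnKO arrays, a log2 fold change of −1.50 (SE 0.08, limma adjusted p = 0.00132). The other Ncstn probe set, 1444532_at, had a log2 fold change of 0.13 (limma adjusted p = 0.753), and the files do not say which of them lies in the deleted part. On 1418570_at the knockout arrays still read above the 95th percentile of 27 bacterial control probe sets. That limit was 4.33 to 4.57 on those arrays, so Ncstn signal was reduced and not absent. The transcripts Xist and Eif2s3y went against the labelled sex on GMP WT arrays 2 and 3 and GMP NcstnKO arrays 2 and 3. By these transcripts 1 array was female in LSK WT, 1 in GMP WT and 3 in GMP NcstnKO. The labels give all 3 GMP WT arrays as female, GMP NcstnKO array 1 as female and its arrays 2 and 3 as male. Array by array, the transcripts thus gave each GMP group the sexes labelled for the other. On 1418570_at, Ncstn on these arrays was close to array 1 of their own labelled genotype. The reason for the sex mismatch was not tested. The median deposited intensity was 98.3 to 103 in LSK WT, 67.3 to 68.6 in GMP WT and 65.4 to 67.9 in GMP NcstnKO. The log2 sum over 9 stem and LSK markers was 14.47 to 14.70 in LSK WT, 12.81 to 13.25 in GMP WT and 12.92 to 13.21 in GMP NcstnKO. The sum over 7 GMP and primary granule markers was 15.14 to 15.44, 16.14 to 16.16 and 16.08 to 16.16. Both sorted fractions thus carried their own markers at the higher level. LSK WT also had the higher late neutrophil sum (9 genes), at 16.05 to 16.47 beside 15.01 to 15.41 in GMP WT.

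The comparison of GMP WT with LSK WT asks how this gene group differs between committed myeloid progenitors and the stem cell fraction. Cdkn1c was at least 9.22-fold lower in GMP WT, and Ccnd1 was 2.64-fold lower. Cdkn1b and Cdkn2d were lower by 1.68-fold and 1.47-fold, and Cdk6 was higher on all 3 of its probe sets, by 1.22-fold to 3.83-fold. Across the 26 probe sets, 11 passed an adjusted p of 0.05 (3 higher, 8 lower), where 34.9% of all 45037 tested probe sets did (6.04% higher and 28.8% lower). Groups did not overlap for 12 of the 26 (3 higher, 9 lower), against 51.8% of all probe sets (11.5% higher and 40.3% lower). The median log2 fold change was −0.37 over the 26 and −0.20 over all probe sets tested. With 1 probe set per gene, 6 of the 10 genes passed (1 higher, 5 lower), where 36.2% of all genes did (6.92% higher and 29.2% lower). Quantile normalization gave 8 calls among the 26 (3 higher, 5 lower), and centring each array on its 75th percentile gave 11 (7 higher, 4 lower). Each of these sets shared 7 probe sets with the 11. By gene, quantile normalization left 3 calls, all lower, and centring gave 2 in each direction.

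**Figure D1:**
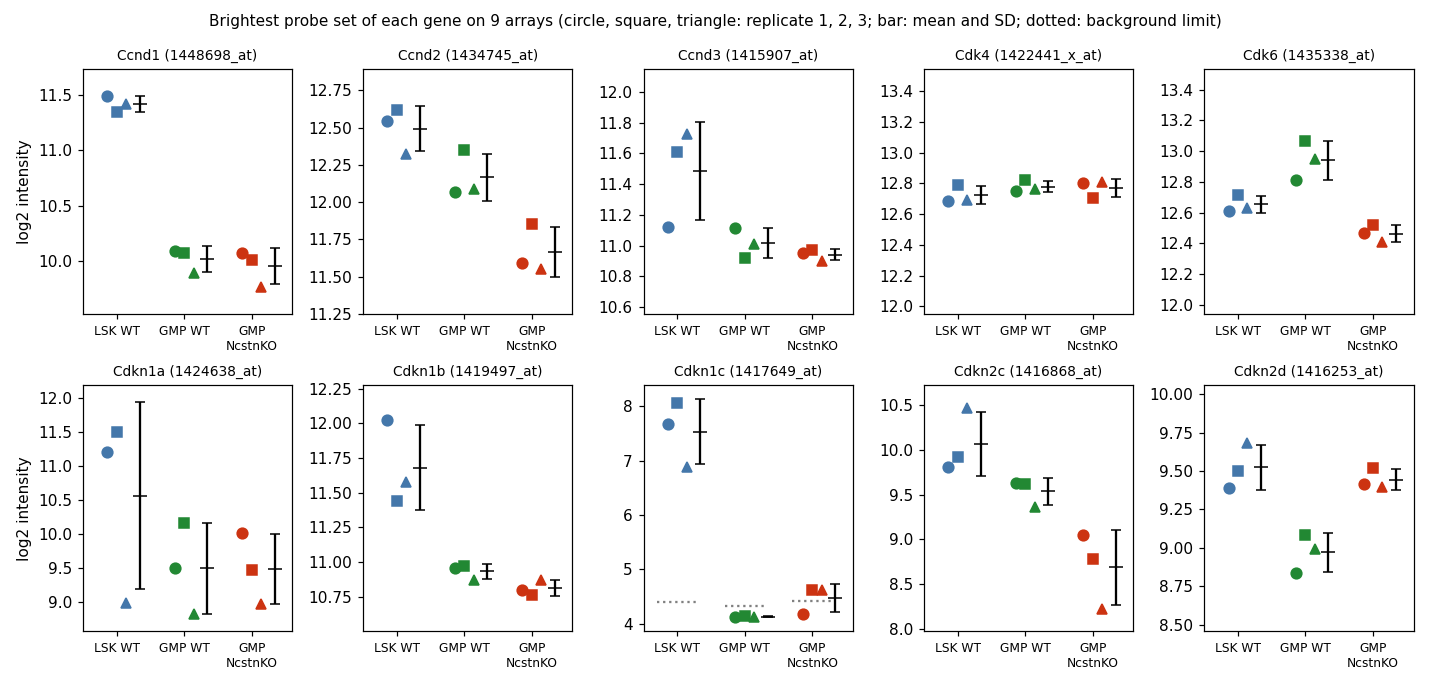
Log2 intensity (y axis) of each of the 10 genes, by its probe set with the highest mean, on the 9 arrays (points, 3 per group; bars are mean and SD). Cdkn1c lies between 6.88 and 8.06 in LSK WT and between 4.12 and 4.62 on the 6 GMP arrays, and LSK WT array 3 lies apart from the other LSK arrays for Cdkn1a.

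Intensities depend on the scaling here, because the deposited arrays of LSK WT and GMP do not share 1 distribution. The median log2 fold change of all probe sets between GMP WT and LSK WT was −0.20 on the deposited scale, 0.06 with quantile normalization, and 0.15 with each array centred on its 75th percentile. Of the called probe sets, 17.33% were higher in GMP WT on the deposited scale, 57.71% with quantile normalization and 67.63% with centring. Fewer cells of a type and less RNA per cell cannot be told apart in these sorted bulk samples.

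Among the cyclins, Ccnd1 was the one whose call between the fractions held under every alternative run on its brightest probe set. Its probe set 1448698_at read 11.49, 11.35 and 11.42 in LSK WT, 10.09, 10.07 and 9.88 in GMP WT, and 10.07, 10.01 and 9.77 in GMP NcstnKO. Every LSK array was above every GMP array, and the 2 GMP groups overlapped. GMP WT was lower by a log2 fold change of −1.40 (SE 0.11, limma adjusted p = 8.88e-05), and the call held under all 20 alternatives run, with values from −1.50 to −1.05. The dimmer probe sets 1417420_at and 1417419_at gave −1.30 (adjusted p = 0.0015) and −0.75 (adjusted p = 0.0102) in the same limma fit. The last of these was −0.17 (adjusted p = 0.490) after quantile normalization. GMP NcstnKO differed from GMP WT by −0.06 on 1448698_at, with a 95% interval of −0.32 to 0.19.

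Ccnd3, the D cyclin best known from lymphoid and erythroid cells, was lower in GMP on a probe set of middle brightness and by a smaller margin on the brightest. Probe set 1438805_at read 10.11, 9.58 and 9.17 in LSK WT, 8.04, 7.61 and 7.66 in GMP WT, and 8.14, 7.33 and 7.80 in GMP NcstnKO. Here the LSK arrays stood clear of all GMP arrays, and the GMP groups overlapped. The log2 fold change of GMP WT against LSK WT was −1.85 (SE 0.27, limma adjusted p = 0.00141), a 3.60-fold difference. Probe set 1415907_at gave −0.47 (SE 0.15, limma adjusted p = 0.0415) from LSK values of 11.12, 11.61 and 11.72 and GMP WT values of 11.11, 10.92 and 11.01. It was −0.37 (adjusted p = 0.109) after quantile normalization and −0.12 (adjusted p = 0.550) after centring. That call passed in 5 of 20 alternatives and failed with the replicate number as a block (adjusted p = 0.0643). The third, dim probe set 1444323_at, between 5.47 and 6.52 on all arrays, was not called in any comparison. Of the B and T lymphoid markers, 6 of 7 measured were lower in GMP WT, where Cd3g was at background. Their log2 sum was 13.49 to 13.91 in LSK WT and 11.26 to 11.73 in GMP WT. In GMP NcstnKO that sum ran from 9.38 to 12.61, while Ccnd3 read 10.90 to 10.97 on 1415907_at and 7.33 to 8.14 on 1438805_at. The stem cell and late neutrophil sums were also lower in GMP WT than in LSK WT, as given above. Erythroid markers were lower as well, on 5 of 9 measured, with a log2 sum of 15.10 to 15.25 in LSK WT and 14.02 to 14.83 in GMP WT, and Hba-a1 was at background in every group. Mast cell, basophil and eosinophil markers went the other way, with 6 of 7 higher and a sum of 13.32 to 13.94 in LSK WT and 15.12 to 15.41 in GMP WT. The part of these transcripts in the Ccnd3 difference, or in that of the other members between the fractions, was not tested.

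Ccnd2, a D cyclin that growth factor signals induce in blood cells, has 7 probe sets. Its brightest, 1434745_at, read 12.54, 12.62 and 12.32 in LSK WT, 12.07, 12.35 and 12.09 in GMP WT, and 11.59, 11.86 and 11.55 in GMP NcstnKO. The LSK WT and GMP WT arrays overlapped, while the knockout arrays were below all others. GMP WT against LSK WT gave −0.33 (limma adjusted p = 0.0838). That value passed with the replicate number as a block (adjusted p = 0.0374) and was 0.02 (adjusted p = 0.906) after centring on the 75th percentile. The other Ccnd2 probe sets gave −0.36 to 0.18, and 0 of the 7 passed in this limma fit, with 1 at an unadjusted p under 0.05. Probe set 1416124_at passed after quantile normalization, at 0.46 (adjusted p = 0.0399), and after centring, at 0.53 (adjusted p = 0.0162), so the direction of Ccnd2 between the fractions is not settled.

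The kinases differed from each other in pattern. Cdk4, the partner of D cyclins found in most tissues, read 12.69, 12.79 and 12.69 in LSK WT, 12.75, 12.82 and 12.76 in GMP WT, and 12.80, 12.71 and 12.81 in GMP NcstnKO (probe set 1422441_x_at). All 3 groups overlapped. The log2 fold change was 0.06 between GMP WT and LSK WT (95% interval −0.13 to 0.24) and −0.01 between the genotypes (−0.19 to 0.18). After centring on the 75th percentile the first of these became 0.40 (limma adjusted p = 0.00499), so whether Cdk4 was level between the fractions depends on the scaling.

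Cdk6 was higher in GMP WT than in LSK WT on each of its probe sets. The brightest, 1435338_at, read 12.61, 12.72 and 12.63 in LSK WT and 12.81, 13.06 and 12.95 in GMP WT, which did not overlap (log2 fold change 0.29, SE 0.09, limma adjusted p = 0.0419). Probe set 1455287_at read 11.71, 11.52 and 11.73 against 12.06, 12.19 and 12.08 (0.46, SE 0.11, limma adjusted p = 0.0110). The dim probe set 1460291_at read 6.74, 5.98 and 7.08 against 8.27, 8.94 and 8.40 (1.94, SE 0.29, limma adjusted p = 0.00161). All 3 thus gave the same order, though their folds ran from 1.22 to 3.83. The smallest of these differences passed in 8 of 20 alternatives, and it was 0.26 (adjusted p = 0.0762) after quantile normalization and 0.64 (adjusted p = 0.00136) after centring.

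Among the CIP/KIP inhibitors, Cdkn1c showed the widest span of all 10 genes. It read 7.67, 8.06 and 6.88 in LSK WT, 4.13, 4.15 and 4.12 in GMP WT, and 4.18, 4.62 and 4.62 in GMP NcstnKO (probe set 1417649_at). All GMP WT values lay at or below the background limit, which is the 95th percentile of 27 bacterial control probe sets on each array and ran from 4.30 to 4.57. The difference between GMP WT and LSK WT was therefore a lower bound, at least 9.22-fold (fitted log2 fold change −3.40, SE 0.27, limma adjusted p = 8.72e-05), and it passed under all 20 alternatives. Knockout arrays read above GMP WT without overlap, by 0.34 (95% interval −0.27 to 0.95, limma adjusted p = 0.526), with GMP WT at background. Taking the brightest bacterial control as the limit put GMP NcstnKO at background as well.

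Cdkn1b, whose protein p27 restrains CDK2, read 12.02, 11.44 and 11.57 in LSK WT, 10.95, 10.97 and 10.87 in GMP WT, and 10.80, 10.76 and 10.87 in GMP NcstnKO (probe set 1419497_at). The LSK arrays were above all 6 GMP arrays. GMP WT was lower by −0.75 (log2 fold change, SE 0.14, limma adjusted p = 0.00497), and by −0.40 (adjusted p = 0.0592) after centring on the 75th percentile. The other probe set, 1434045_at, had overlapping groups and gave −0.39 (adjusted p = 0.124).

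Cdkn1a, the p53 target that encodes p21, varied more within a group than any other member. Its probe set 1424638_at read 11.21, 11.50 and 8.998 in LSK WT, 9.51, 10.16 and 8.83 in GMP WT, and 10.01, 9.48 and 8.98 in GMP NcstnKO. LSK WT array 3 was thus within the range of the GMP arrays, and array 3 was the lowest of each group on this probe set. The log2 fold change of GMP WT against LSK WT was −1.07 (SE 0.64, 95% interval −2.52 to 0.39, limma adjusted p = 0.228). Without LSK WT replicate 3 it was −1.85 (adjusted p = 0.0128), so 1 array decides this call. The second probe set, 1421679_a_at, read 9.07, 9.34 and 7.47 in LSK WT, 7.36, 8.06 and 7.05 in GMP WT, and 7.82, 7.21 and 7.40 in GMP NcstnKO. On it array 3 was the lowest in LSK WT and GMP WT, and array 2 in the knockouts. It gave −1.13 (adjusted p = 0.0943), or −1.71 (adjusted p = 0.00513) without that array. Ier2, an immediate-early gene, was among the transcripts with the profile nearest to Cdkn1a and read 11.69, 11.91 and 10.58 in LSK WT, 10.39, 10.98 and 9.75 in GMP WT, and 11.07, 10.80 and 10.30 in GMP NcstnKO. It too was lowest on array 3 of each group. Ier2 was picked by its correlation with Cdkn1a over these same arrays, so this likeness follows from the choice.

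For the INK4 inhibitors, the fractions differed in Cdkn2d and less clearly in Cdkn2c. Cdkn2d read 9.39, 9.50 and 9.68 in LSK WT and 8.83, 9.08 and 8.99 in GMP WT (probe set 1416253_at), a log2 fold change of −0.55 (SE 0.11, limma adjusted p = 0.00529). This value was −0.20 (adjusted p = 0.208) after quantile normalization and −0.21 (adjusted p = 0.165) after centring, neither of which passed. Cdkn2c read 9.81, 9.91 and 10.47 in LSK WT and 9.62, 9.61 and 9.37 in GMP WT (probe set 1416868_at). These groups did not overlap, and the difference of −0.53 (SE 0.24, limma adjusted p = 0.115) did not pass.

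**Figure D2:**
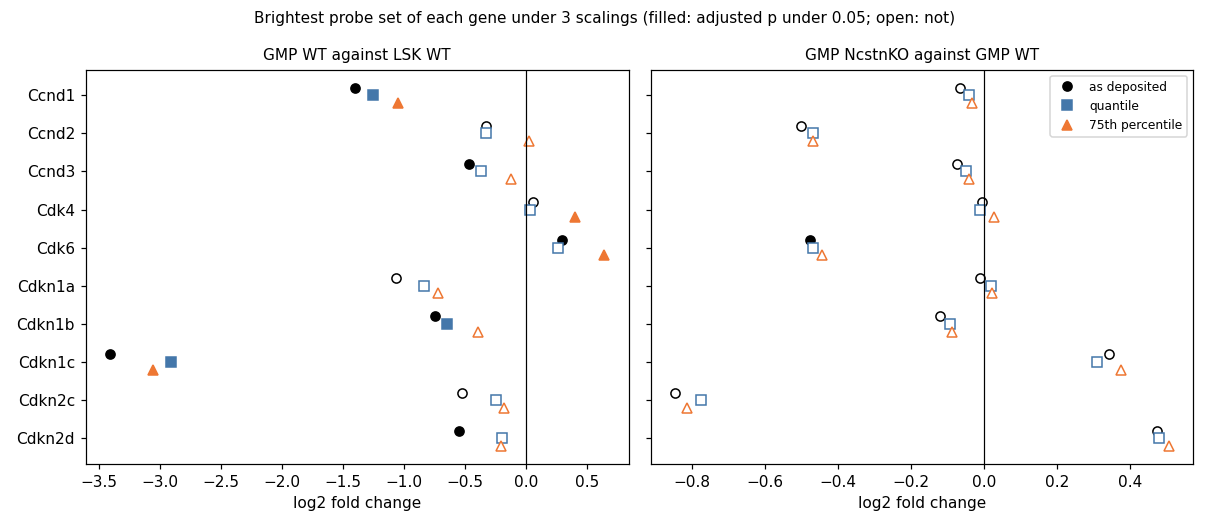
Log2 fold change (x axis) of the 10 genes (y axis) under the deposited scaling, quantile normalization and centring on the 75th percentile, for GMP WT against LSK WT and for GMP NcstnKO against GMP WT. Cdk4 moves from 0.06 to 0.40 between deposited and centred values in the first comparison, while Cdk6 stays between −0.48 and −0.45 in the second.

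The comparison of GMP NcstnKO with GMP WT asks what differs in these progenitors in the Ncstn knockout genotype. Cdk6 was lower in the knockouts on 1435338_at, by 1.39-fold, the only one of the 26 probe sets to pass, but the call passed in 3 of 20 alternatives and was lost after quantile normalization, after centring and on leaving out any 1 array. On the brightest probe set of each gene, Cdkn2c and Ccnd2 read lower and Cdkn2d higher with no overlap between the genotypes. Cdkn1c also read higher without overlap, with GMP WT at background. None of these passed in this fit over all probe sets, and other Ccnd2 probe sets, such as 1430127_a_at, did overlap. In this comparison 1.75% of all 45037 probe sets passed, and 1 of the 26 did (0 higher, where 0.604% of all were, and 1 lower, where 1.15% were). The groups did not overlap for 9 of the 26 (2 higher, 7 lower), against 27.2% of all probe sets (14.9% higher and 12.3% lower). The median log2 fold change was −0.07 over the 26 and 0.04 over all. At an unadjusted p under 0.05 there were 8 of 26, and 8937 of all 45037 probe sets. With 1 probe set per gene, 1 of 10 genes (1 lower) passed in the fit over all probe sets, where 2.31% of genes did (0.846% higher and 1.46% lower), and 2 passed in a fit of 18193 genes, Cdk6 (adjusted p = 0.0275) and Cdkn2d (adjusted p = 0.0399). In that gene-level fit 5.70% of all genes passed.

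Of the genes whose genotypes did not overlap, 3 are shown by the RefSeq promoter sequence, to give the sequence context of their starts. Each runs 5′ to 3′ from 250 bases before to 50 bases after the transcript start on the gene's strand (build GRCm38.p6). They are Cdk6 at chr5:3343643-3343942 on the plus strand, Cdkn2c at chr4:109666707-109667006 on the minus strand, and Cdkn2d at chr9:21291160-21291459 on the minus strand. Capitals mark matches, on either strand, to the RBPJ core TGGGAA (the DNA contact of Notch signalling), the GC box GGGCGG, the TATA box TATAAA, or the E2F forms TTTCCCGC and TTTGGCGC.
Cdk6: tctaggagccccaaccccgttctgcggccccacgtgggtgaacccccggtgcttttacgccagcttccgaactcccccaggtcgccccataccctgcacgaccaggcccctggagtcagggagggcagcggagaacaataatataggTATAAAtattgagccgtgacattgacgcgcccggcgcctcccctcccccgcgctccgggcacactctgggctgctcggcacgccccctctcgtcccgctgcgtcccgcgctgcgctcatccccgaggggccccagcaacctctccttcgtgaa
Cdkn2c: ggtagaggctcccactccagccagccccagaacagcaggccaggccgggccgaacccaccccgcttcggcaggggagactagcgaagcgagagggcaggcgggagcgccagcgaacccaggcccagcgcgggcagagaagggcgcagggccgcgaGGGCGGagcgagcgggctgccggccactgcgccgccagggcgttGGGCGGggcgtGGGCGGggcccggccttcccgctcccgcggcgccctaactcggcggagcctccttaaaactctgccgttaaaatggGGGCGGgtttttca
Cdkn2d: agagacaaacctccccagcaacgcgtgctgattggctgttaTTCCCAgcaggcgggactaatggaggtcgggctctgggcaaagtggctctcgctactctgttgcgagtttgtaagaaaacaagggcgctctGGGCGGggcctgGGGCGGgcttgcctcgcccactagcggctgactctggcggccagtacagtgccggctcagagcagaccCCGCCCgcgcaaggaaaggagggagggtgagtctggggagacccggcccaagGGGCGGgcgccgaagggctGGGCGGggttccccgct
The Cdk6 window held 1 TATA box and 0 GC boxes, the Cdkn2c window 4 GC boxes, and the Cdkn2d window 5 GC boxes and 1 RBPJ core. Their GC content was 66.7%, 73.3% and 66.3%. Among 32851 promoters of the same length, the RBPJ core was in 25.6%, the GC box in 35.7%, the TATA box in 13.6%, and the E2F forms in 1.07% and 0.514%. Matches to different motifs did not overlap in these 3 windows. Neither E2F form was in any of the 10 windows available for Ccnd3, Cdk4, Cdk6, Cdkn1a, Cdkn1b, Cdkn2c and Cdkn2d. The RBPJ core was also in the Cdk4 window and in that of the second Cdkn1a start, genes whose genotypes overlapped. The second Cdkn2c start held 0 matches. A match is a description of the letters and not of a site in use.

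On the Cdk6 probe set 1435338_at the knockout arrays read 12.47, 12.52 and 12.41, beside 12.81, 13.06 and 12.95 in GMP WT. The highest knockout array lay below the lowest GMP WT array and below the lowest LSK WT array as well. The log2 fold change was −0.48 (SE 0.09, 95% interval −0.69 to −0.27, limma adjusted p = 0.0475). The other 2 probe sets also did not overlap between genotypes, at −0.39 (adjusted p = 0.0952) for 1455287_at and −0.84 (adjusted p = 0.164) for 1460291_at. The first of these passed with trend and robust eBayes (adjusted p = 0.0469), and the second was −0.11 (adjusted p = 0.953) with the Actb ratio as covariate. The order over the 3 groups was GMP WT highest on each probe set. On 1435338_at the knockouts were next to LSK WT (−0.19, adjusted p = 0.134), and on 1460291_at they stayed above LSK WT (1.10, adjusted p = 0.0158). Over 20 alternatives the sign of the 1435338_at difference did not change, with values from −0.54 to −0.34, but the call passed in 3 of them and was lost on leaving out any 1 of the 9 arrays (adjusted p from 0.0621 to 0.173). Without the 4 arrays whose sex transcripts go against the label it was −0.34 (adjusted p = 0.652, 1 array left in each GMP group), with sex from the transcripts as a covariate −0.39 (adjusted p = 0.197), and with the Actb ratio −0.42 (adjusted p = 0.540).

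**Figure D3:**
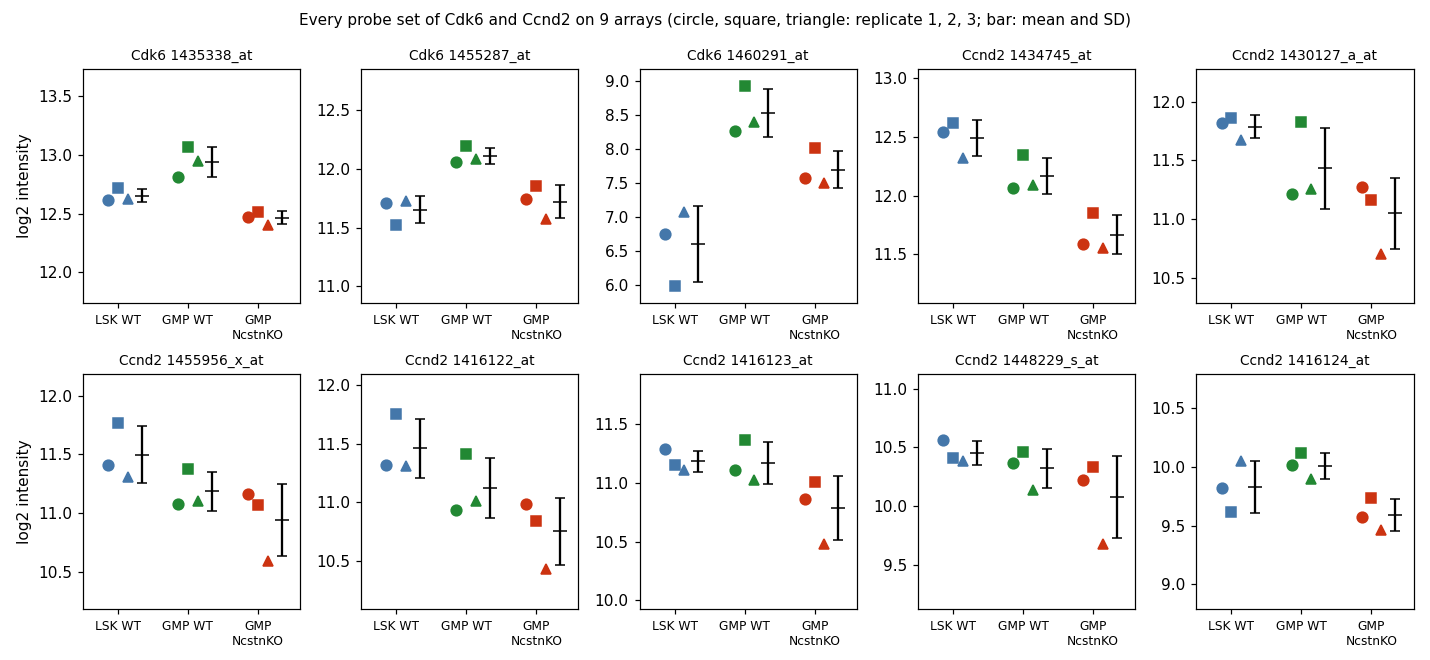
Log2 intensity (y axis) of the 3 Cdk6 and 7 Ccnd2 probe sets on the 9 arrays (points, marker shape gives the replicate number; bars are mean and SD). Each Cdk6 panel has GMP WT above GMP NcstnKO without overlap, and the Ccnd2 panels have the knockout mean lowest in all 7.

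All 7 Ccnd2 probe sets had a lower mean in the knockouts, and 3 of them did not overlap with GMP WT. The 1434745_at difference was −0.50 (SE 0.13, 95% interval −0.80 to −0.21, limma adjusted p = 0.0857), and the other probe sets gave −0.42 to −0.24. It passed in 1 of 20 alternatives, trend and robust eBayes (adjusted p = 0.0439). Without the 4 arrays whose sex transcripts go against the label, 1434745_at was −0.48 (adjusted p = 0.625), while 1430127_a_at, 1455956_x_at and 1416122_at were on the other side of 0, at 0.06, 0.08 and 0.05. These probe sets share 1 gene and the same arrays, so they are not separate observations. Ccnd1 and Ccnd3 overlapped between the genotypes on all of their probe sets. For Ccnd3 the difference was −0.07 (95% interval −0.42 to 0.27) on 1415907_at.

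In the INK4 pair, the knockout means lay on opposite sides of GMP WT. Cdkn2c read 9.05, 8.79 and 8.23 in the knockouts, each below the lowest GMP WT array at 9.37, with a log2 fold change of −0.85 (SE 0.24, 95% interval −1.38 to −0.31, limma adjusted p = 0.102). Cdkn2d read 9.41, 9.52 and 9.40 in the knockouts, each above the highest GMP WT array at 9.08, with 0.47 (SE 0.11, 95% interval 0.23 to 0.72, limma adjusted p = 0.0647). The Cdkn2d difference passed only with 1 probe set per gene (adjusted p = 0.0399) and without the dimmest 40% of probe sets (adjusted p = 0.0493) of the 20 alternatives. It was 0.39 (adjusted p = 0.222) with sex from the labels as a covariate, 0.61 (adjusted p = 0.132) with sex from the transcripts, and 0.58 (adjusted p = 0.562) without the 4 arrays whose sex transcripts go against the label. Cdkn2c was −0.57 (adjusted p = 0.730) without those arrays and −0.62 (adjusted p = 0.198) without GMP NcstnKO replicate 3. Cdkn2d in the knockouts lay close to LSK WT (−0.08, 95% interval −0.33 to 0.17), whereas this difference was 0.30 (adjusted p = 0.0441) after centring.

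Other transcripts moved beside these genes. The late neutrophil sum (9 of 10 listed genes measured) was 15.01 to 15.41 in GMP WT and 15.52 to 15.70 in GMP NcstnKO. All 9 had a positive log2 fold change, from 0.25 to 1.01, 4 had an unadjusted p under 0.05 and 0 passed in limma. In a limma fit of 18193 genes alone, 4443 had an unadjusted p under 0.05. Camp, a granule protein of maturing neutrophils, is itself part of that sum. Its profile over the arrays was among the nearest to Cdkn2d (r 0.973), after the dim Myh3 (0.974). Camp read 12.05, 12.54 and 12.71 in GMP WT and 13.23, 13.30 and 13.19 in GMP NcstnKO. Beside Cdkn2c and Ccnd2, the erythroid sum (9 of 10 measured) was 14.02 to 14.83 in GMP WT and 12.81 to 13.45 in GMP NcstnKO, with 5 genes lower and Hba-a1 at background in every group. The part of these transcripts in the Cdk6, Cdkn2c, Cdkn2d and Ccnd2 differences was not tested. The macrophage sum was 10.78 to 11.51 in GMP WT and 10.50 to 11.78 in GMP NcstnKO, with 2 of 6 genes lower and Cd5l at background in both. Of all genes, 1.46% were lower in GMP NcstnKO than in GMP WT. As a sign of RNA quality, the 3 prime Actb control exceeded the 5 prime one by a log2 ratio of 0.577 ± 0.111 (SD, n = 3) in GMP WT and 0.899 ± 0.140 (SD, n = 3) in GMP NcstnKO. The difference of 0.322 had an exact 2-sided permutation p of 0.1, the smallest that 3 against 3 can give.

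**Figure D4:**
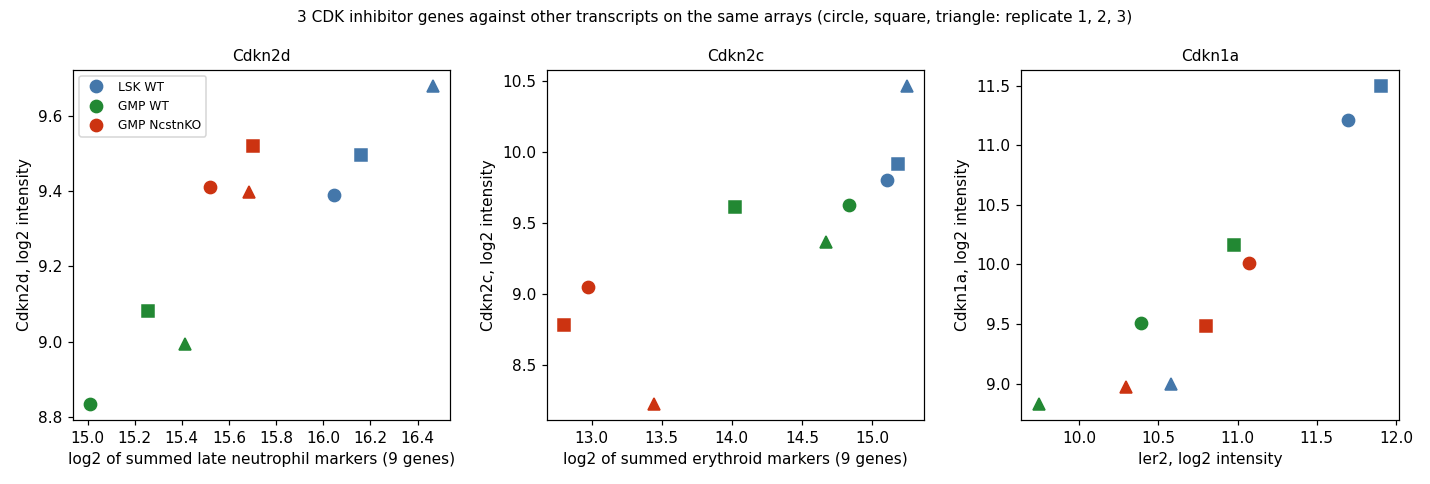
Log2 intensity of Cdkn2d, Cdkn2c and Cdkn1a (y axes) against the log2 summed late neutrophil markers, the log2 summed erythroid markers and Ier2 (x axes) on the same 9 arrays (points, 3 per group; marker shape gives the replicate number). Knockout arrays lie above GMP WT on both axes of the Cdkn2d panel and below it on both axes of the Cdkn2c panel.

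The remaining inhibitors did not pass between genotypes. Cdkn1b gave −0.12 (95% interval −0.45 to 0.21, limma adjusted p = 0.691). Cdkn1a gave −0.01, with a wide interval of −1.47 to 1.45, so a change within those bounds was not detectable with these arrays. Cdkn1c was at background in GMP WT, as given above.

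GMP NcstnKO against LSK WT shares its arrays with both comparisons above, so it is given as values only beside them. In it 13 of the 26 probe sets passed (1 higher, 12 lower), where 43.5% of all did (11.4% higher and 32.1% lower). Quantile normalization gave 10 calls (1 higher, 9 lower), all among these 13, and centring gave 13 (6 higher, 7 lower), of which 8 were among them. The groups did not overlap for 16 of the 26, against 54.3% of all. With 1 probe set per gene, 6 of 10 passed, all lower, where 45.3% of all genes passed and 31.4% were lower. They were Ccnd1 (−1.47), Ccnd2 (−0.83, limma adjusted p = 0.00130), Ccnd3 (−0.54, adjusted p = 0.0190), Cdkn1b (−0.87), Cdkn1c (−3.06) and Cdkn2c (−1.38, adjusted p = 0.00199). By gene, quantile normalization left 5 calls, all lower, and centring gave 2 higher and 5 lower. The Ccnd3 call passed in 13 of 20 alternatives and was lost after quantile normalization (−0.42, adjusted p = 0.0595) and centring (−0.16, adjusted p = 0.387). For Ccnd2, 4 of 7 probe sets passed here. Of these 1434745_at alone kept the call after centring (−0.45, adjusted p = 0.0170), and 1455956_x_at lost it after quantile normalization as well (−0.43, adjusted p = 0.0906).

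**Figure D5:**
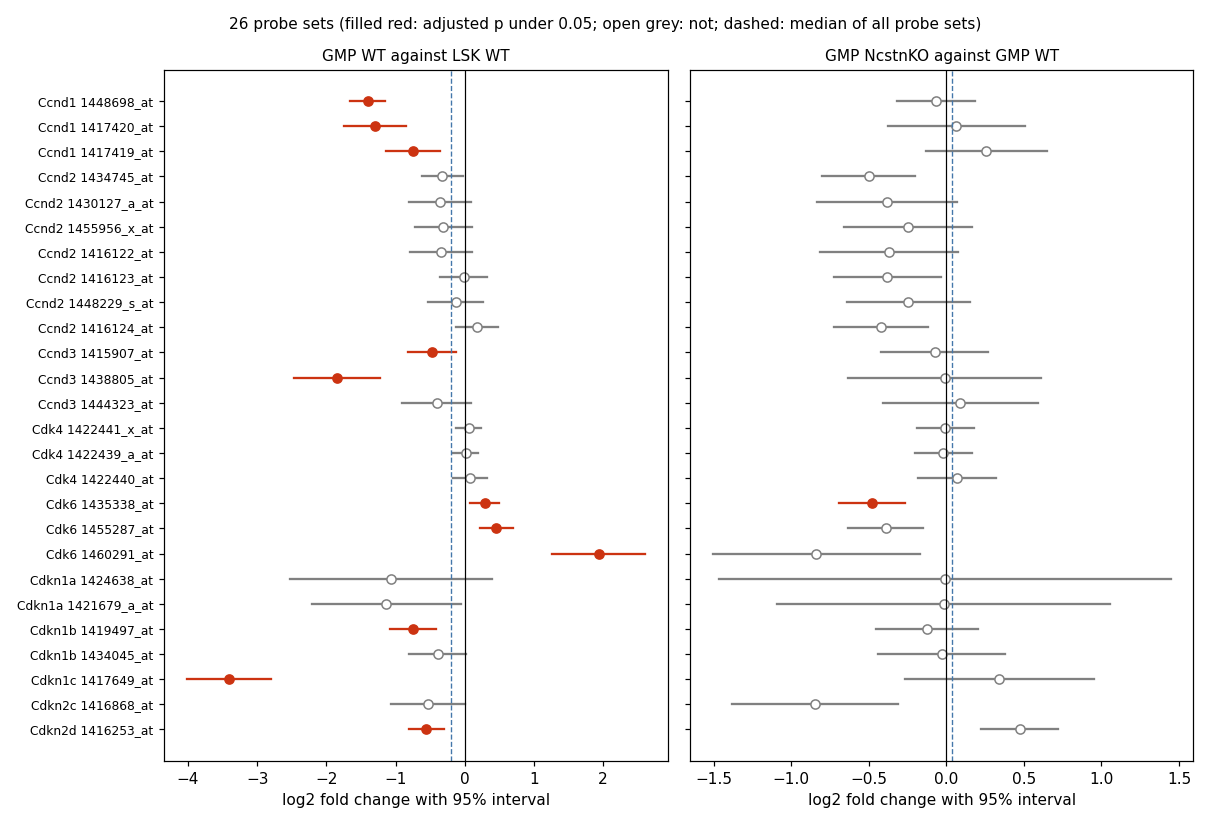
Log2 fold change with its 95% interval (x axis) of the 26 probe sets (y axis) for GMP WT against LSK WT and GMP NcstnKO against GMP WT; filled red points passed an adjusted p of 0.05 and the dashed line is the median of all probe sets. In the first comparison 11 points are filled, and in the second the Cdk6 probe set 1435338_at alone, while all 7 Ccnd2 points there lie below 0.

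Genes that act around the D cyclin kinases were counted in 6 lists. Over all genes, 29.2% were lower and 6.92% higher in GMP WT against LSK WT. Between the genotypes 1.46% were lower and 0.846% higher, and 31.4% were lower in GMP NcstnKO against LSK WT. In a limma fit of 18193 genes alone, 8737 and 4443 had an unadjusted p under 0.05 in the first 2 of these comparisons. Of the 13 pocket protein, E2F and DP genes, 5 were lower in GMP WT than in LSK WT and 0 were higher, with a median of −0.23 (log2 fold change) beside −0.18 over all genes. E2f5, a partner of the p130 pocket protein, fell by 1.17 on the log2 scale (limma adjusted p = 0.00264), E2f2, an activating factor, fell by 1.08 (adjusted p = 0.00661) and Rbl2, which encodes p130, fell by 0.56 (adjusted p = 0.0162). Between the genotypes 0 of 13 passed in limma, 2 had an unadjusted p under 0.05, and the median was −0.22 beside 0.06 over all genes. Tfdp2, which encodes a DP partner of E2F, gave −0.65 (adjusted p = 0.0856), the atypical repressor E2f7 gave −0.49 (adjusted p = 0.0928), and E2f4 gave −0.27 (adjusted p = 0.312). Against LSK WT, 8 of the 13 were lower in the knockouts. Centring changed this list between the fractions to 4 higher and 2 lower in GMP WT, and to 3 higher and 4 lower in the knockouts against LSK WT. Of the 6 genes of the cyclin E and A stage, which follows cyclin D activity, 0 passed in limma between GMP WT and LSK WT or between genotypes, with 0 at an unadjusted p under 0.05 in either. After centring, 4 of the 6 were higher in GMP WT than in LSK WT, and after quantile normalization 1 was. Ccna1 was at background in all groups, and Ccne2 was higher in the knockouts than in LSK WT (0.73, adjusted p = 0.0212).

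Of 12 proliferation genes, 0 passed between GMP WT and LSK WT in limma, 1 had an unadjusted p under 0.05, and the median was 0.10. After centring 11 of the 12 were higher in GMP WT, and after quantile normalization 0 passed. Between the genotypes Prc1, a protein of the mitotic spindle midzone, was lower in the knockouts (−0.42, limma adjusted p = 0.0478), a call that neither quantile normalization nor centring kept. Mki67 gave −0.36 (adjusted p = 0.0849) and Top2a −0.21 (adjusted p = 0.225), and the median of the 12 was −0.06. The 11 genes for CDK assembly, CDK activation and the turnover of cyclins and inhibitors had 3 lower in GMP WT than in LSK WT, where 29.2% of all genes were lower. These were Fbxw7 (−0.60), the ubiquitin ligase subunit for cyclin E, Fbxo4 (−0.76), a ligase subunit for cyclin D1, and the kinase Pim1 (−0.59). After centring, 3 of the 11 were higher in GMP WT and 0 lower. Between genotypes 0 of 11 passed in limma, with 6 at an unadjusted p under 0.05. Pim1, which phosphorylates p21 and p27, gave 0.54 (adjusted p = 0.0992), Mnat1, the assembly factor of the CDK-activating kinase, 0.34 (adjusted p = 0.115), and Cdc37, the chaperone partner of CDK4, −0.35 (adjusted p = 0.163).

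The neighbours and regulators of the inhibitor genes, a list that mixes activators and repressors of transcription, were measured for 10 of 11. Cdkn2a was at background in all 3 groups. Cdkn2b had means of 4.06 in LSK WT, 4.34 in GMP WT and 4.42 in GMP NcstnKO. That put it at background in LSK WT and GMP NcstnKO, and at the limit in GMP WT. With the brightest bacterial control as the limit, all 3 groups were at background for Cdkn2b. In GMP WT against LSK WT, 2 of the 10 were higher (Cebpa 0.75, a myeloid factor, and Gfi1 0.70, a repressor) and 4 were lower. Of all genes 6.92% were higher and 29.2% lower. Foxo1 and Smad3, transcription factors that induce CDK inhibitors, gave −1.54 (limma adjusted p = 0.00327) and −0.93 (adjusted p = 0.000666). After centring, 4 of the 10 were higher and 2 lower. Between genotypes 0 of 10 passed in limma and 3 had an unadjusted p under 0.05, with Foxo4 at −0.49 (adjusted p = 0.0693), Foxo3 at −0.41 (adjusted p = 0.0698) and Smad3 at −0.39 (adjusted p = 0.116). Of 11 p53 targets other than Cdkn1a, 8 were lower in GMP WT than in LSK WT, with a median of −1.04 beside −0.18 over all genes. After quantile normalization 3 were lower and after centring 5, with 0 higher in either. They included Trp53inp1 (−1.76, limma adjusted p = 0.000421), Zmat3 (−1.31) and Sesn2 (−0.81). Zmat3, which encodes an RNA-binding protein, was also the 1 of 11 that passed between genotypes (−1.10, adjusted p = 0.0328). Beside it, Phlda3 gave −0.93 (adjusted p = 0.121) and Sesn2 −0.34 (adjusted p = 0.159). Cdkn1a itself passed in neither comparison.

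The genes nearest in pattern were those with the highest Pearson r over the 9 arrays, among 13690 genes above background on at least 3 arrays. With so few arrays and 3 groups, high values are shared by many genes, and r is given as a description. For the cyclins they were Pabpc4l (0.997) and Rnf122 (0.993) beside Ccnd1, Rbm33 (0.992) and Arhgef7 (0.987) beside Ccnd2, and Polm (0.982) and Il2rb (0.970) beside Ccnd3. Beside the kinases they were Defb15 (0.919) and Pycrl (0.915) for Cdk4, the lowest values of the 10, and Sec31a (0.985) and Inafm2 (0.983) for Cdk6. For the CIP/KIP genes they were Man2a2 (0.949) and Ier2 (0.947) for Cdkn1a, Ocln (0.992) and Acot4 (0.986) for Cdkn1b, and Medag (0.996) and Sema3g (0.995) for Cdkn1c. For the INK4 genes they were Parp11 (0.974) and Smo (0.973) for Cdkn2c, and Myh3 (0.974) and Camp (0.973) for Cdkn2d. Ocln, Medag and Sema3g were above background on the LSK WT arrays alone, and Pabpc4l on those and 1 GMP WT array. For these genes r sets LSK WT signal against GMP values near or below background. Probe sets of 1 gene did not all correlate so well with each other. The dim Cdk6 probe set 1460291_at correlated at 0.497 with 1435338_at, and 1416124_at of Ccnd2 at 0.500 with 1434745_at.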

How the data were processed

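The 9 arrays held biotin-labelled cDNA made from 5 ng of total RNA, amplified with the Ovation system per the labels' protocols. Each probe set carries a linear intensity that the authors deposited after RMA, per the submitters' processing notes. Joint or separate normalization of the arrays is not given in the sources used here. Their log2 was taken.

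All 45037 probe sets that are not controls entered 1 limma fit (version 3.58.1, R 4.3.3, lmFit with eBayes, 3 group means, 6 residual degrees of freedom, 2-sided). Calls are adjusted p-values (Benjamini-Hochberg, all 45037) under 0.05, and every adjusted p is from limma over all features tested. Intervals are at 95%. The number of arrays limits the precision. Symbols came from the platform annotation: 34945 probe sets had 1 symbol, 932 several and 9160 none. A group is at background where all its arrays, or their mean, lie at or below the 95th percentile of 27 bacterial controls. A lower bound sets the bright group's mean against the higher of that limit and the signal on each array. A summed level is the log2 of summed linear intensities.

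Named genes were all member probe sets, up to 3 genes per pathway list with the smallest p, and 2 genes nearest in pattern to each member, leaving out predicted genes. The members and lists were chosen with earlier results of these data known. Trp53 and Bax were not analysed here. The fit was tested on simulated data with independent noise and no scaling difference between groups. Between the genotypes it recovered 65 of 100 changes of 1 log2 unit and 91 of 100 of 2 units. Smaller changes were not simulated. Figures were drawn with matplotlib 3.10.9 in Python 3.11.15.

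Replicate numbers 1 to 3 recur in each group and did not enter the fit. Deviations of same-numbered LSK WT and GMP WT arrays from their group means correlated at 0.247, 0.247 and 0.296. This is a hint from the values, which the labels do not state, that those numbers pair these 2 groups. The p-values of the main fit did not use that pairing. A replicate block entered only as an alternative, and it covered the knockout arrays as well. For GMP WT with GMP NcstnKO the correlations were −0.0275, 0.0236 and 0.0320, and for LSK WT with GMP NcstnKO 0.0447, −0.0140 and 0.0323, which pair nothing. Alternatives were other scalings, filters, fits and covariates, and leaving out each array.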

Additional observations from a re-analysis of the deposited data

How the results depend on the processing

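Member probe sets called between GMP WT and LSK WT numbered 11. All 11 kept their sign under every alternative run, and 2 kept the call. Between the genotypes 1 was called, with its sign kept in all 20 alternatives and its call lost in 17 of them. Between GMP NcstnKO and LSK WT 13 were called, of which 12 kept their sign and 4 the call under every alternative. After quantile normalization 3 of 10 member genes passed in GMP WT against LSK WT. Over all probe sets that comparison called 9379 without the dimmest 40% and 10130 with the Actb ratio as covariate. Between the genotypes 0 member probe sets and 0 member genes passed in limma with quantile normalization, centring on the 75th percentile, the 2 groups alone, the replicate block, either sex covariate or the Actb ratio; at an unadjusted p under 0.05, 8366, 9575, 8918, 8965, 7063, 6639 and 3966 of all probe sets passed under these in turn. Without the dimmest 40%, 2 member probe sets and 2 genes passed; with trend and robust eBayes, 3 and 2; with 1 probe set per gene, 2 genes. Over all probe sets the genotypes gave 498 calls with quantile normalization, 1367 without the dimmest 40%, 2 with the 2 groups alone, 9 with the replicate block, 1 and 4 with sex from labels and transcripts, 0 with the Actb ratio and 1415 with trend and robust eBayes. The same-numbered arrays of the genotypes share only a number; with the replicate block Cdk6 1435338_at had an adjusted p of 0.0755, while in GMP WT against LSK WT the block called 11 member probe sets and changed no call other than the Ccnd2 and Ccnd3 ones given above. Leaving out 1 array at a time gave 9 to 11 member probe sets, 4 to 5 genes and 11916 to 15937 of all probe sets in GMP WT against LSK WT; 0 to 0, 0 to 0 and 1 to 285 between the genotypes; and 9 to 13, 5 to 6 and 16371 to 18735 in GMP NcstnKO against LSK WT. Without the 4 arrays whose sex transcripts go against the label, a choice made after seeing the data that leaves 1 array in each GMP group and assumes it varies like the others, the counts were 2, 2 and 3323; 0, 0 and 0; and 4, 3 and 6315. Between GMP NcstnKO and LSK WT, Ccnd1 1417419_at was 0.16 after quantile normalization, and Cdk4 1422439_a_at 0.37 and Cdkn2d 1416253_at 0.30 after centring. The cause of these changes was not tested.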
